A study of Mus musculus with 6 samples.

Results

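Horizontal cell genes were examined in mouse retina with and without Dicer1 in rods. The set was a list of 8 gene symbols, Lhx1, Onecut1, Onecut2, Prox1, Calb1, Gja10, Slc4a3 and Sept4, all 8 of which were found among the 22731 symbols of the deposited expression table. Retinal poly(A) RNA was sequenced at 4 weeks of age in 3 conditional knockout libraries (cKO, genotype Dicerfl/fl with iCre75+) and 3 control libraries of littermates (Dicerfl/fl with iCre75-). Both groups were on a mixed C57BL/6J - SJL background and carried the floxed Dicer1 alleles. By their stated genotype they differed in the Cre transgene, which is active in rod photoreceptors. Each library pooled RNA of 4 mice, and retinas were collected between 8 and 10 in the morning. P-values therefore measure the spread between pools of mice.

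Horizontal cells are inhibitory interneurons of the outer retina. Their processes reach into the terminals of rods and cones, receive glutamate there and send feedback onto the photoreceptors, and they are joined to each other by gap junctions. Their fate depends on a cascade of transcription factors in which Onecut1 acts before Lhx1, which places the cells in their layer, and on Prox1. Because the Cre transgene is active in rods, horizontal cells keep their own Dicer1, and the comparison concerns a rod-specific loss as read in the whole retina. In whole retina, fewer cells of a type and less RNA per cell cannot be told apart.

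The values are RPKM, reads scaled to the length of the gene model and to the depth of the library, and can be compared between genes. Reads worked back from the RPKM steps gave 12336408 to 32934507 reads in genes per library, with the fewest in cKO replicate 4. The tissue label was met by the rod genes, with Nrl, the factor that specifies rods, at 829 RPKM in cKO and 862 RPKM in control retinas. Dicer1 was at 8.02, 7.06 and 7.90 RPKM in cKO replicates 2, 3 and 4 and at 8.48, 8.77 and 8.33 RPKM in control replicates 1, 2 and 3, so all cKO values lay lower (limma adjusted p = 0.931). Lens RNA differed 16.1-fold over the 6 libraries in the summed level of its 8 markers, from 203 RPKM in a cKO to 3273 RPKM in a control library. It varied within both groups.

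The 8 genes spanned a wide range of levels. Sept4 was the most abundant, at a mean of 120.8 RPKM over the 6 libraries, followed by Slc4a3 at 35.7, Prox1 at 21.5 and Calb1 at 15.7 RPKM. The transcription factor genes Lhx1 and Onecut1 were at 2.93 and 2.82 RPKM, the connexin gene Gja10 at 1.94 RPKM and Onecut2 at 0.272 RPKM. Each neighbour in this order was separated from the next in all 6 libraries, with no overlap of ranges, except Lhx1 and Onecut1, whose order held in 3 of 6 libraries. Not all of this RNA need come from horizontal cells, since Prox1, Calb1, Slc4a3 and Sept4 are also known from other retinal cells.

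None of the 7 members tested passed an adjusted p of 0.05. A gene was tested if its mean was at least 1 RPKM, which Onecut2 did not reach. Over all 12599 genes tested, 0.00794% passed (1 gene, higher in cKO). At an unadjusted limma p under 0.05, 2 of the 7 were higher in cKO, Slc4a3 and Lhx1, and 0 were lower, beside 5.71% of all tested genes in either direction, 2.65% higher and 3.06% lower. These same 2 were the only members of the 7 whose 3 cKO values all lay above the 3 control values, beside 5.91% of all tested genes, and 0 of the 7 had all cKO values below the controls, beside 5.78%. Limma voom on the recovered reads also called 0 members. The mean log2 value was higher in cKO for 6 of the 7 and for 48.4% of all tested genes. The median log2 fold change of the 7 was 0.06, beside −0.0050 over all tested genes. It moved with single libraries, to 0.12, 0.05 and 0.15 without cKO replicate 2, 3 or 4 and to 0.11, 0.018 and 0.13 without control replicate 1, 2 or 3, and it was 0.22 over the 4 libraries numbered 2 and 3. The members were chosen with results of these data known, so these counts describe the list.

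**Figure D1:**
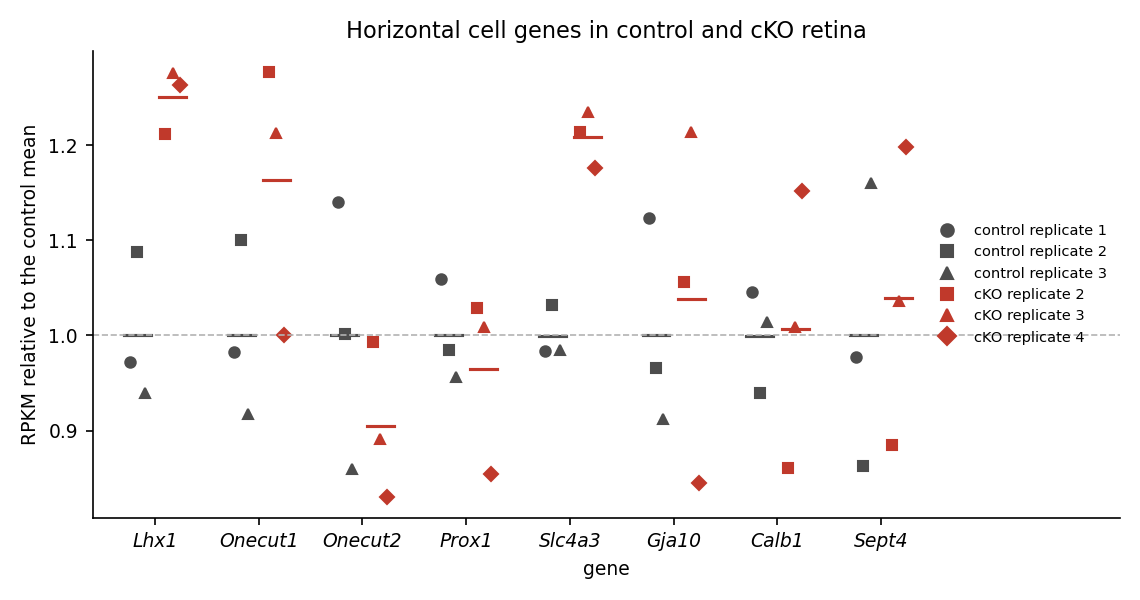
RPKM of each horizontal cell gene in each library, divided by that gene's mean over the 3 control libraries (dashed line at 1). Grey points are control and red points cKO libraries, with a shape for each replicate number and a bar for each group mean. The red points lie above all grey points for Lhx1 and Slc4a3, and the groups overlap for the other 6 genes.

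Lhx1 encodes a LIM-homeodomain transcription factor that is needed for horizontal cells to settle in their layer. The gene lies on chromosome 11 (84518284 to 84525535 in GRCm38, a later build than the mm9 of the authors, used here and for the other members only to place genes). It was at 3.16, 3.33 and 3.29 RPKM in cKO replicates 2, 3 and 4 and at 2.53, 2.84 and 2.45 RPKM in control replicates 1, 2 and 3. The cKO values lay close together and above every control value. The cKO mean was 3.26 ± 0.0890 RPKM and the control mean 2.61 ± 0.203 RPKM (SD, n = 3 each), or 125% of control. Limma gave a log2 fold change of 0.28 ± 0.08 (SE, adjusted p = 0.848), a fold of 1.21 with a 95% confidence interval of 1.06 to 1.39 on the log2(RPKM + 0.5) scale, which understates ratios of low genes. By the exact permutation test (two-sided) p was 0.1, and 3 libraries against 3 can go no lower. These values rest on 137 to 328 reads per library. The spread between cKO libraries, 2.73% of their mean, was below the 7.08% that counting alone gives, and that between control libraries, 7.78%, was above the 6.09% from counting. Without each library in turn the log2 fold change lay between 0.24 and 0.33.

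Onecut1, the factor upstream of Lhx1 in horizontal cell genesis, lies on chromosome 9 (74861921 to 74891781 in GRCm38). It was at 3.33, 3.17 and 2.61 RPKM in cKO and at 2.56, 2.87 and 2.40 RPKM in control retinas. The groups overlapped, since cKO replicate 4 lay below control replicate 2. Limma gave a log2 fold change of 0.18 ± 0.11 (SE, adjusted p = 0.943), with a 95% interval of −0.07 to 0.43. The reads per library ranged from 72 in cKO replicate 4 to 207 in cKO replicate 3, and the counting error of the lowest was 11.8%. In GENCODE M21, 2171 of the 4113 exonic bases of Onecut1 are shared with the noncoding gene Gm20649 on the same strand, and how such reads were assigned is not given in the sources used here. The length behind the RPKM of Onecut1 was 1823 bp.

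Onecut2, its paralogue, was at 0.283, 0.254 and 0.237 RPKM in cKO and at 0.325, 0.285 and 0.245 RPKM in control retinas. These ranges overlap. Its gene model is long, at 13391 bp, so the low RPKM still stands for 48 to 150 reads per library. The difference of mean log2(RPKM + 0.5) was −0.05, and it was not tested in the main fit. With the lower filter of a mean of 0.1 RPKM it was tested, and limma gave an adjusted p of 0.997.

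Prox1 encodes a homeodomain factor that in the mature retina marks horizontal cells and also AII amacrine and bipolar cells. It lies on chromosome 1 (190118035 to 190170714 in GRCm38). Its level was 22.5, 22.1 and 18.7 RPKM in cKO and at 23.2, 21.6 and 20.95 RPKM in control retinas, on 1171 to 3511 reads per library. The cKO libraries held both a value near the top of the controls and the lowest value of all, in cKO replicate 4. Its log2 fold change by limma was −0.05 ± 0.10 (SE, adjusted p = 0.997), with a 95% interval of −0.28 to 0.17, and it was 0.03 without cKO replicate 4. A gene on the opposite strand, Prox1os, shares 133 of its 8390 exonic bases, and reads carried no strand.

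**Figure D2:**
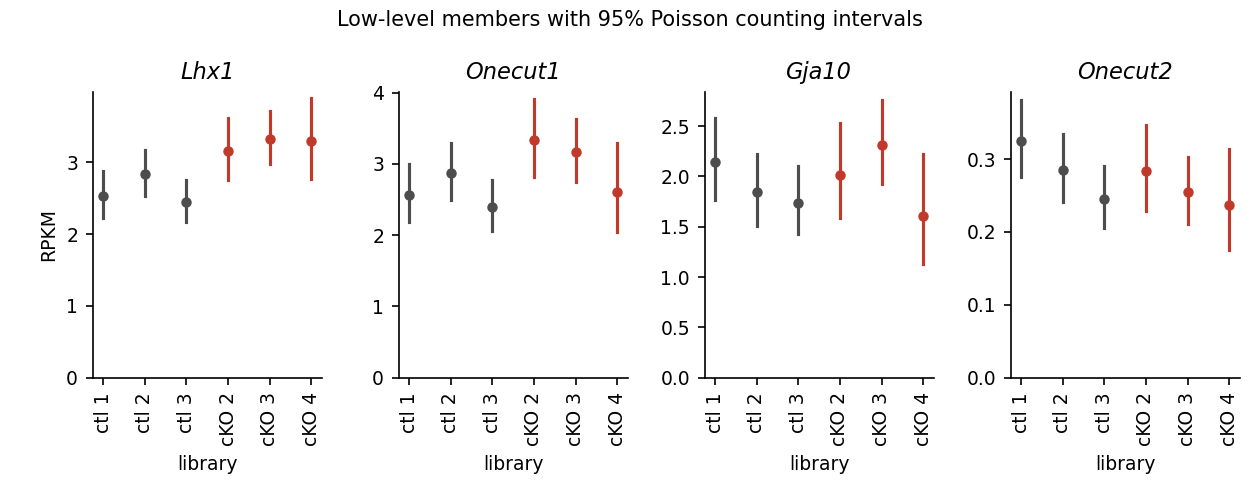
RPKM of Lhx1, Onecut1, Gja10 and Onecut2 in each library (ctl, control), with exact 95% Poisson intervals from the recovered reads, which cover counting error only. Each vertical axis starts at 0. The intervals of cKO replicate 4 are the widest of each gene's cKO libraries, and for Gja10 it runs from 1.13 to 2.22 RPKM on 37 reads.

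The transcription factor genes differ in their 3′ untranslated regions, the part of a messenger RNA where microRNAs bind. Dicer makes mature microRNAs, but horizontal cells keep their own Dicer1, since the Cre transgene is active in rods. The members' longest annotated 3′ UTRs were searched for perfect matches to bases 2 to 8 (the seed) of 5 microRNAs known from retina. The mature sequences, from RefSeq on GRCm38.p6, are shown 5′ to 3′ with the seed in capitals. The first 3 come from 1 cluster that is abundant in photoreceptors, and miR-182 and miR-96 share the first 6 bases of the seed.
mmu-miR-183-5p: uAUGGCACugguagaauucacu
mmu-miR-182-5p: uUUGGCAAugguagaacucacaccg
mmu-miR-96-5p: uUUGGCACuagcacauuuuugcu
mmu-miR-9-5p: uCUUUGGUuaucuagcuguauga
mmu-miR-204-5p: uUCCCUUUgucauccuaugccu

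Onecut1 held 3 matches to miR-9-5p (letters ACCAAAG) in a 3′ UTR of 2183 bases, and Lhx1 held 2 matches to miR-182-5p (TTGCCAA) in one of 1265 bases. The stretches of these 2 genes come from the GENCODE M21 transcripts, with the match in capitals. Those of the other members with matches are not printed.
Onecut1, UTR base 149: tagtccaaagaaACCAAAGa
Onecut1, UTR base 754: aatcacctaggtACCAAAGa
Onecut1, UTR base 808: atgattttaataACCAAAGc
Lhx1, UTR base 638: tttgatttgtttTTGCCAAa
Lhx1, UTR base 1160: atattcagacagTTGCCAAa

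Each number is the base of the UTR at which the match starts. Onecut2 held 19 matches, 14 of them to miR-9-5p, in a 3′ UTR of 14356 bases, against a median of 1240 bases over 11041 tested genes. Slc4a3 held 1 match to miR-204-5p, and Prox1, Calb1, Gja10 and Sept4 held none for these 5. Of the tested genes with a UTR, 14.4% held at least 1 match to miR-9-5p, 12.96% to miR-182-5p and 16.7% to miR-204-5p. The share with repeated matches was not counted. A match is a description of letters, and whether any of them acts was not tested. The UTRs of Onecut1 and Onecut2 were longer than the whole models behind their RPKM, 1823 and 13391 bp. Part of each UTR therefore lies outside what was counted, and which matches lie within it was not examined. The members with repeated matches, Lhx1, Onecut1 and Onecut2, had cKO means of 125%, 116% and 90.5% of control, and none of the 3 passed the test or, for Onecut2, was tested.

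Slc4a3 encodes AE3, an exchanger of chloride and bicarbonate that is known in the retina from horizontal cells and Müller glia. It lies on chromosome 1 as well (75546266 to 75562172 in GRCm38). It was at 39.3, 39.9 and 38.0 RPKM in cKO replicates 2, 3 and 4 and at 31.8, 33.4 and 31.8 RPKM in control replicates 1, 2 and 3. The groups did not overlap, with the lowest cKO value above the highest control value. The cKO mean was 39.1 ± 0.958 RPKM and the control mean 32.3 ± 0.905 RPKM (SD, n = 3 each), or 121% of control. The log2 fold change was 0.27 ± 0.08 (SE), a fold of 1.21 with a 95% interval of 1.07 to 1.36. It had the smallest p of the 7 members, 0.00801, which ranked 133 among the 12599 tested genes, and the limma adjusted p was 0.758. The exact permutation p was 0.1. Its values rest on 2554 to 6352 reads per library, so counting error was at most 1.98%. Without each library in turn the log2 fold change lay between 0.25 and 0.29, and the adjusted p over the alternatives other than the replicate block was at least 0.480.

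Among the 5 tested genes whose centred log2 profile over the 6 libraries was closest to that of Slc4a3 were Slc44a1, Adipor1, Hcn3 and Telo2. The mean absolute difference of these 4 from it was 0.0203 to 0.0242 on the log2 scale. Slc44a1, a choline transporter gene, was at 21.6 ± 0.297 RPKM in cKO and 17.3 ± 0.523 RPKM in control retinas (SD, n = 3 each). Adipor1, which encodes an adiponectin receptor, was at 403 ± 13.5 and 339 ± 12.8 RPKM.

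Gja10 encodes connexin 57, the gap junction subunit of horizontal cells, on chromosome 4 (32596960 to 32602760 in GRCm38). It was at 2.02, 2.32 and 1.61 RPKM in cKO and at 2.14, 1.84 and 1.74 RPKM in control retinas. The cKO libraries held both the highest and the lowest value. Its log2 fold change by limma was 0.04 ± 0.13 (SE, adjusted p = 0.997), with a 95% interval of −0.26 to 0.33. Leaving out cKO replicate 3 gave −0.06, and leaving out control replicate 3 gave −0.01. With 37 to 126 reads per library, counting alone gives an error of 12.7% in cKO and 9.57% in controls, and the observed spread was 17.9% and 10.99%.

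Lens RNA was read beside these genes, since lens also expresses Prox1. Cryaa, a lens crystallin gene, was at 640, 1171 and 79.9 RPKM in cKO replicates 2, 3 and 4 and at 1488, 150 and 524 RPKM in control replicates 1, 2 and 3. Gja10 was highest in cKO replicate 3 and control replicate 1, which held the most lens RNA of their groups, and lowest in cKO replicate 4, which held the least, but its lowest control was replicate 3 and not replicate 2. Prox1 was highest in control replicate 1 and lowest in cKO replicate 4, but its highest cKO library was replicate 2 and its lowest control was replicate 3, which does not follow the order of lens RNA. The summed level of the 8 lens markers ran from 203 to 2428 RPKM in cKO and from 348 to 3273 RPKM in controls, and all 8 were above 0. The part of lens RNA in the values of Gja10 and Prox1 was not tested. In cKO replicate 4 and control replicate 2, where lens RNA was lowest in each group, Prox1 was at 18.7 and 21.6 RPKM.

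**Figure D3:**
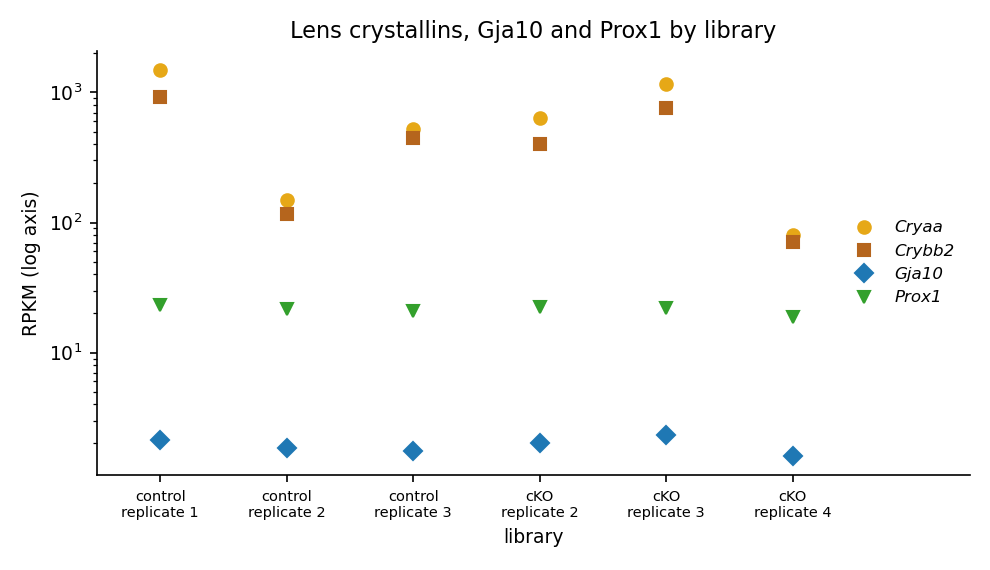
RPKM on a log axis of the lens crystallin genes Cryaa and Crybb2, the connexin gene Gja10, and Prox1 in each of the 6 libraries. The crystallins are lowest in control replicate 2 and cKO replicate 4, while Gja10 stays between 1.61 and 2.32 RPKM and Prox1 between 18.7 and 23.2 RPKM.

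Calb1 encodes calbindin, the calcium buffer used to stain horizontal cells, and some amacrine cells contain it too. It lies on chromosome 4 (15881264 to 15908064 in GRCm38). It was at 13.5, 15.8 and 18.03 RPKM in cKO and at 16.4, 14.7 and 15.9 RPKM in control retinas. The control values lay within the range of the cKO values. Its log2 fold change by limma was 0.0017 ± 0.11 (SE, adjusted p = 0.999), with a 95% interval of −0.26 to 0.26. It turned to −0.0043 when cKO replicate 3 was left out, to −0.10 for cKO replicate 4 and to −0.04 for control replicate 2.

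Sept4 encodes a septin, a GTP-binding protein that forms filaments, and lies on chromosome 11 (87568903 to 87590539 in GRCm38). It was at 104.8, 122.7 and 141.9 RPKM in cKO and at 115.8, 102.1 and 137.4 RPKM in control retinas. Both groups held low and high values, and the spread within each group, 15.06% in cKO and 15.01% in controls, was far above the counting error of 1.49% and 1.18%. Its log2 fold change by limma was 0.06 ± 0.15 (SE, adjusted p = 0.997), with a 95% interval of −0.29 to 0.40, and leaving out either cKO replicate 4 or control replicate 2 turned it to −0.05. The cone gene Pde6h was high and low in the same libraries, at 126, 150.2 and 200.2 RPKM in cKO and 143, 109.8 and 207 RPKM in controls. Among the other cone markers, Arr3, Gngt2 and Opn1sw had the same order of libraries within each group as Sept4. Gnat2, Opn1mw and Cnga3 did not, and Cnga3 was highest in cKO replicate 2. What the libraries high in Sept4 share beyond their level of such genes was not tested.

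**Figure D4:**
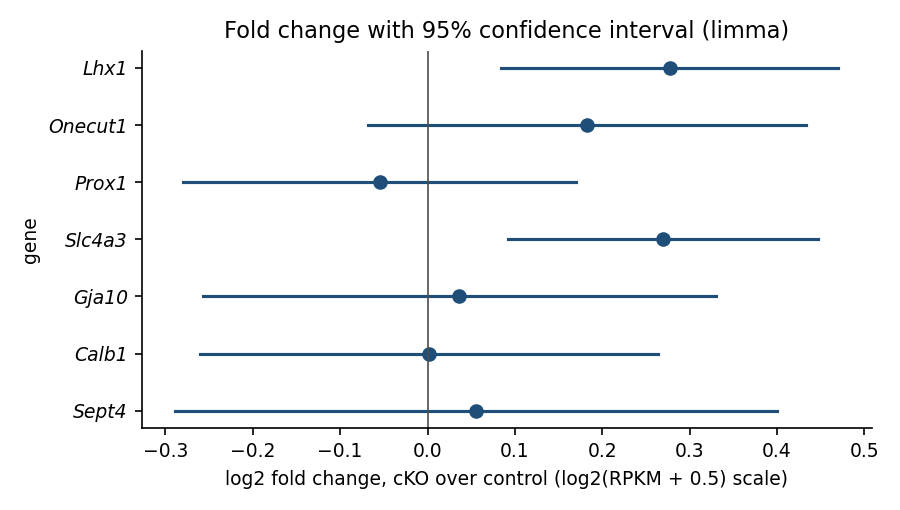
Log2 fold change of cKO over control for the 7 horizontal cell genes tested, on the log2(RPKM + 0.5) scale, with 95% confidence intervals from limma before adjustment over genes. The intervals of Lhx1 and Slc4a3 lie above 0 and the other 5 span 0.

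Other genes of horizontal cell biology were described by fixed lists, and none of their members passed the adjusted threshold. Among 9 factors that specify horizontal cells or act in their genesis, 7 were tested, of which 4 lay higher in cKO on average and 3 lower, with a median log2 fold change of 0.03. Onecut3, the remaining Onecut gene, had the smallest p of these and was at 2.18 ± 0.0721 RPKM in cKO and 1.90 ± 0.232 RPKM in controls (SD, n = 3 each, limma adjusted p = 0.945). Pax6, which retinal progenitors and amacrine and horizontal cells express, was the most abundant, with a log2 fold change of 0.03. Foxn4 and Ptf1a, which act early in the genesis of the cells, were below 0.1 RPKM in every library. Tfap2a and Tfap2b were found under their older symbols Tcfap2a and Tcfap2b, at means of 8.399 and 16.6 RPKM.

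The 6 genes of transmission and feedback had a median log2 fold change of 0.02, 4 higher and 2 lower. Slc32a1, the vesicular transporter of GABA and glycine, was at 81.2, 80.9 and 65.3 RPKM in cKO and 69.6, 77.8 and 66.0 RPKM in control retinas, and Gad1, a GABA-synthesizing enzyme and the most abundant, had a log2 fold change of −0.0058. Amacrine cells use both genes too.

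Of the 6 genes of spacing and wiring, 4 were higher and 2 lower, with a median of 0.0034. Ntng2 had the largest difference of these 6. It encodes netrin-G2, a surface protein whose partner NGL-2 guides horizontal cell axons to rods. It was at 100.6, 108 and 88.5 RPKM in cKO and 69.9, 86.5 and 68.3 RPKM in control retinas. All cKO values lay above the controls, as in 5.91% of all tested genes. By limma the log2 fold change came to 0.40 ± 0.12 (SE, adjusted p = 0.848), and the exact permutation p was 0.1. Lrrc4, which encodes NGL-2, had a log2 fold change of 0.0082. Megf10 and Megf11, receptors that space horizontal cells in a mosaic, were at −0.04 and 0.0048.

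The families of the membrane and cytoskeletal members were also read. Of 19 other connexins 6 were tested, 2 higher and 4 lower, with a median of −0.05. Gjd2 (connexin 36), the most abundant, was at 23.4, 23.8 and 22.5 RPKM in cKO and 27.3, 26.5 and 22.6 RPKM in controls (limma adjusted p = 0.976). Of 12 other septins 8 were tested, 2 higher and 6 lower, with a median of −0.03, and Sept5 was the most abundant (log2 fold change 0.05). Sept8 had the smallest p, at 33.3 ± 1.40 RPKM in cKO and 30.4 ± 0.671 RPKM in controls (SD, n = 3 each, limma adjusted p = 0.950). Of 9 other SLC4 transporters 7 were tested, 5 higher and 2 lower, with a median of 0.02. Slc4a11 had the smallest p of these, with a log2 fold change of −0.23 (limma adjusted p = 0.972), and Slc4a5 was the most abundant, at 0.07. Slc4a2, which like Slc4a3 exchanges anions, had a log2 fold change of 0.09.

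Among 11 other LIM-homeobox genes 6 were tested, 5 higher and 1 lower, with a median of 0.07. Isl1, the most abundant, had a log2 fold change of 0.17, and Lhx4, with the smallest p, 0.16 (limma adjusted p = 0.964). Lhx5, the closest relative of Lhx1, was listed at 0 in all 6 libraries. The 5 tested of 6 other calcium-binding protein genes were all lower in mean log2 value, with a median of −0.06 and the smallest p for Necab1 (log2 fold change −0.12, limma adjusted p = 0.965). Calb2 (calretinin), the most abundant, was at 229 to 271 RPKM in cKO and 223 to 297 RPKM in controls.

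**Figure D5:**
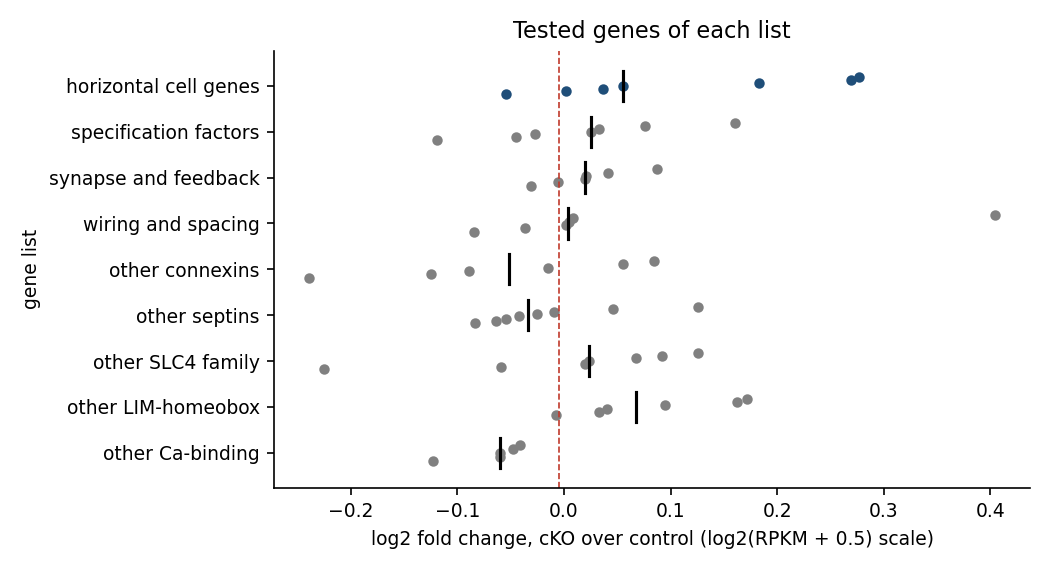
Log2 fold change of cKO over control for each tested gene of the horizontal cell set (blue) and of the 8 related gene lists (grey), on the log2(RPKM + 0.5) scale. Black bars are list medians, and the dashed line is the median of all 12599 tested genes. The far right point is Ntng2, at 0.40.

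Markers of other cells that share these genes were read beside them. Of 8 bipolar cell markers, 7 were higher and 1 lower, with a median log2 fold change of 0.15, and their summed level was 352 to 387 RPKM in cKO and 315 to 329 RPKM in controls. In Grm6, the glutamate receptor gene of ON bipolar cells, the groups did not overlap, as in Slc4a3 and Lhx1. It was at 57.5, 63.3 and 66.2 RPKM in cKO and 46.6, 57.2 and 54.0 RPKM in control retinas. All cKO values lay above the controls in 5.91% of all tested genes and in 2 of the 8 bipolar markers. They did so too in 2 of the 9 amacrine markers, Slc6a9 and Chat. In 1 Müller glia marker, Aqp4, all cKO values lay below the controls, beside 5.78% of all tested genes. The ganglion cell markers held 0 of either kind. Of 9 amacrine markers 7 were higher, with a median of 0.03 and sums of 490.5 to 556 and 480.3 to 576 RPKM. The 7 Müller glia markers had a median of 0.0076 and sums of 1723 to 1777 and 1739 to 1973 RPKM, and the 10 ganglion cell markers a median of 0.0087. All markers of these 4 lists were above 0 in at least 1 library, and none passed the adjusted threshold. The part of these cells in the values of Slc4a3 and Lhx1 was not tested.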

How the data were processed

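The authors deposited 1 table of RPKM values for 22731 genes in 6 libraries. The aligner GSNAP, the counter HTSeq and the mm9 build are named without versions in the submitters' processing notes, and per the labels' protocols poly(A) RNA was copied with random primers and an ordinary second strand, so reads carry no strand. The length models and the treatment of reads with several matches are not given in the sources used. Because RPKM divides by depth and length, a change in abundant genes shifts the others.

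Since RPKM is no count, log2(RPKM + 0.5) was tested with limma 3.58.1 (R 4.3.3, variance trend) for the 12599 genes whose mean reached 1 RPKM. P-values are two-sided and were adjusted by Benjamini-Hochberg over all of them, with a threshold of 0.05. For members, group means were compared by exact permutation (two-sided) as well. Fold changes on this scale understate the change of low genes.

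Reads were worked back from the steps of the RPKM values. Short genes of known RefSeq length gave a first value for each library's denominator. It was then reset from 277 genes with a single GENCODE M21 transcript and sharpened with abundant genes. The final denominators lay between 15128203 and 40523119 reads, and whole reads (within 0.02) were found for 99.98% of the 19140 genes above 0. A step is taken as 1 read. Poisson intervals cover counting error only. The search for gene lengths was tested on simulated data with the denominators given. The setting of the denominators was not tested in this way.

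The members and lists were chosen with earlier results of these data known, and the 5 microRNAs and the pairs set against each other as ratios were chosen afterwards. Named are all members, from each list of related genes the most abundant gene and that with the smallest p, and close relatives or partners of a member. Some genes that this rule names are not reported here. Markers of other cells are given by list, with those named that share a pattern with a member. UTRs come from GENCODE M21, which is on GRCm38 and not on mm9.

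Alternatives were 2 other pseudocounts, no filter and a lower filter, median of ratios scaling, no variance trend, a replicate block, leaving out each library, and limma voom on the recovered reads, the last chosen after seeing the data.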

Additional observations from a re-analysis of the deposited data

How the results depend on the processing

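The count of members past the threshold was 0 in all 15 alternatives, and Lhx1, Onecut1 and Slc4a3 kept their direction in each. The count of all genes past it was 1 in the main test, 3 with no filter, 3 with median of ratios scaling, 2 with no variance trend and 3 with limma voom, and 1 without each library in turn. Members near 0 changed sign. Without cKO replicate 3, Calb1 was at −0.0043 and Gja10 at −0.06. Without cKO replicate 4, Prox1 was at 0.028, Calb1 at −0.10 and Sept4 at −0.05. Without control replicate 2, Calb1 was at −0.04 and Sept4 at −0.05, and without control replicate 3 Gja10 was at −0.01. With limma voom Calb1 was at −0.025. Over the fits that left out 1 library, Prox1 ran from −0.10 to 0.028, Calb1 from −0.10 to 0.11, Gja10 from −0.06 to 0.15 and Sept4 from −0.05 to 0.17. The cause was not tested. Counting alone gives an error of 12.7% of the cKO mean for Gja10 and 11.5% for Onecut2. For Sept4 it gives 1.49%, while the spread between its cKO libraries was 15.06%.

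Replicate numbers 2 and 3 occur in both groups, but nothing in the labels pairs them, and the deviations of the libraries with number 2 correlated at 0.465 over genes and those with number 3 at −0.052. A replicate block on these 4 libraries, with 1 residual degree of freedom, called 209 genes and no member, with Prox1 at 0.069, Calb1 at −0.065 and Sept4 at −0.062. The same libraries without the block gave the same 3 values and called 1 gene.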

Other observations

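Ratios between genes within a library do not depend on its depth. Of 7 pairs, 3 had all cKO values higher and 4 overlapped between the groups. The pairs with Slc4a3 share a numerator whose own cKO values all lay above the controls. The share of gene pairs at large without overlap was not computed. The ratio of Lhx1 to Onecut1 in RPKM was 0.948, 1.05 and 1.26 in cKO replicates 2, 3 and 4 and 0.988, 0.988 and 1.02 in the controls, with overlap. The ratio of Onecut1 to Onecut2 was 11.8, 12.5 and 11.02 in cKO and 7.88, 10.1 and 9.78 in control retinas, with all cKO values higher. The ratio of Slc4a3 to Slc4a2 was 2.78, 2.68 and 3.11 in cKO and 2.46, 2.49 and 2.61 in controls, also with all cKO values higher. The ratio of Slc4a3 to Prox1 did not overlap either, at 1.74, 1.80 and 2.03 in cKO and 1.37, 1.55 and 1.52 in controls. The ratios of Gjd2 to Gja10 (10.3 to 14.4 over the 6 libraries), Sept5 to Sept4 (0.386 to 0.687) and Calb2 to Calb1 (15.02 to 18.7) overlapped between the groups. These pairs were chosen after their values were seen, so the ratios are a description.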
